A study of Mus musculus with 15 samples.

Results

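Whole-brain gene expression after a short period of every-other-day feeding (EOD) was compared between 3 young EOD mice and 4 young mice fed ad libitum (AL), 7 of the 15 mice of the series. The mice were chosen by their labels alone, and every gene with enough counts entered the comparison. All were wildtype C57BL/6J males housed in groups and given the same chow. AL mice always had food, while EOD mice had free access to food for a day and then none for a day, in alternation, from 2 months of age. The labels give the young mice an age of 3 months, and the study's text gives 3 months as the age when its tests began and 13 weeks of testing, so the length of the EOD period before the brains were taken is not settled. By the study's general rule, which applied wherever nothing else was stated, data collection began on the morning that followed a feeding day. Nothing further is stated for the brains in the sources used here. The 4 old AL and 4 old EOD mice (24 months by the labels, the same feeding from 2 months of age) are used only for the spread between mice and to set the diet difference in young mice beside that in old mice.

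A mouse without food uses up its liver glycogen, releases glucocorticoids from the adrenal gland and turns to fatty acids and ketone bodies. The brain keeps using glucose and takes up ketone bodies. Several gene programs follow these states: glucose-sensing transcription factors drive Txnip and its arrestin relatives, the glucocorticoid receptor drives a set of targets in neurons and glia, and insulin and sterol levels set the synthesis of cholesterol and unsaturated fatty acids. Feeding time also shifts the circadian clock of many tissues, in which BMAL1 (encoded by Arntl) and CLOCK activate the Per, Cry and Rev-erb genes that repress them in turn.

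The 4 AL libraries held 8316676 to 13610729 gene counts each and the 3 EOD libraries 5877267 to 9886766. One library stood apart. The third AL mouse had the largest total but the fewest genes with a count, 17280 against 19232 to 20812 in the other 6 young mice, and its median correlation with the other libraries was 0.957 against 0.980 to 0.987 among the other 14. Results are therefore given with and without it. No label gives the sequencing lane, which was read from the alignment names in the headers of the count tables. Lanes were divided unevenly: lane 1 held 2 AL mice and 1 EOD mouse, lane 2 held the third AL mouse and 2 EOD mice, and the remaining AL mouse ran in lane 3 with no young EOD mouse. Markers of neurons (summed 8409 to 10294 CPM, the count scaled to the library total), astrocytes (4963 to 5674 CPM) and oligodendrocytes (6291 to 7514 CPM) were high in all 7 mice. Pituitary RNA was near 0 except in the first AL mouse, with 7.11 CPM for the pituitary markers together against at most 0.789 CPM in the other 6.

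No gene passed an FDR of 0.1 among the 15864 genes tested (0%), where the lowest adjusted p of edgeR's quasi-likelihood test was 0.501. At an unadjusted p under 0.05 there were 657 genes (4.14%), 290 of them higher (1.83%) and 367 lower (2.31%) in EOD mice. Without the third AL mouse 0 of 15687 genes passed (0%) and 629 reached an unadjusted p under 0.05 (4.01%), 274 higher (1.75%) and 355 lower (2.26%). The 2 sets shared 316 genes with the same direction, 48.1% of the 657. DESeq2 called 1 gene, Txnip, at an FDR of 0.0243 with all mice and had 658 genes at an unadjusted p under 0.05, while without the third AL mouse it called 0, with 548 genes at that level. By chance alone a share of 0.05 of genes is expected at an unadjusted p under 0.05. The shares here (4.14% and 4.01%) were not above it. An unadjusted p under 0.05 is called the nominal level below. Genes that reached it are described because they lay furthest apart against the spread between mice, and none of them passed the FDR in this comparison, with adjusted p from 0.501 (Txnip, higher in 3 of 3 EOD mice) to 0.996. Of the 62 named genes at the nominal level with all mice, 27 missed it without at least 1 of the 7 mice and 35 kept it whichever mouse was left out. Levels are CPM scaled by TMM factors, and fold changes are log2 values, EOD minus AL, with their standard error.

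Txnip had the smallest p both with and without the third AL mouse. It encodes the thioredoxin-interacting protein, an alpha-arrestin that binds thioredoxin and promotes removal of glucose transporters from the cell surface, and its gene (ENSMUSG00000038393, chr3:96557957-96561883, GRCm38) is a target of the glucose-sensing factors ChREBP and MondoA. Its level was 24.3, 29.5, 27.3 and 32.1 CPM in the AL mice and 39.4, 47.3 and 46.7 CPM in the EOD mice. The lowest EOD mouse lay above the highest AL mouse. The log2 fold change was 0.64 ± 0.12, and it was 0.62 ± 0.13 without the third AL mouse. Within lanes the log2 difference was 0.55 in lane 1 and 0.78 in lane 2.

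The 250 bases before the annotated start of Txnip (RefSeq, GRCm38.p6, chr3:96557707-96557956, plus strand) are shown because the known control of this gene by glucose runs through paired E-boxes there. Capitals mark the match to the carbohydrate response element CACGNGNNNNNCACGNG, whose first base lies 85 bases before the start.
Txnip: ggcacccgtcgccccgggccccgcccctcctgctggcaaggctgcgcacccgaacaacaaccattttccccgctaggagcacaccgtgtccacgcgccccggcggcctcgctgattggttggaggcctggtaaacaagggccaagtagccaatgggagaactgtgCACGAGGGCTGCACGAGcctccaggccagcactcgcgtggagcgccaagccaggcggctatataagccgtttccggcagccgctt
Of 32851 promoter windows of this length, 15 (0.0457%) held this motif on either strand. Of the 22 members of the glucose-sensing and arrestin list that had a window, 1 held it, namely Txnip.

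Gm15441 (ENSMUSG00000074398, chr3:96555765-96566801), a long noncoding RNA gene on the opposite strand that contains the whole of Txnip, showed a larger difference. Its level was 5.06, 6.87, 4.83 and 7.36 CPM in the AL mice and 10.3, 13.1 and 11.7 CPM in the EOD mice, with every EOD mouse above every AL mouse. The log2 fold change was 0.94 ± 0.20. Reads were counted by strand, so that the 2 genes are separate in the deposited counts, but a small share of reads from the wrong strand of the more abundant Txnip cannot be told apart from Gm15441 reads.

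The other alpha-arrestins are adaptors that bring membrane proteins to ubiquitin ligases. Arrdc3, which takes part in the turnover of beta-adrenergic receptors, measured 70.1, 73.9, 71.8 and 67.6 CPM in the AL mice and 88.1, 88.2 and 97.8 CPM in the EOD mice. Again the groups did not overlap (log2 fold change 0.37 ± 0.10). Arrdc2 was at 6.87, 6.50, 9.44 and 7.86 CPM in the AL mice and 7.80, 9.11 and 12.6 CPM in the EOD mice, with the third AL mouse above 2 EOD mice. Its log2 fold change was 0.35 ± 0.21, short of the nominal level, and 0.47 ± 0.21 without that mouse, when it reached that level. Without the third EOD mouse, the highest, it was 0.12. Of the 5 arrestins tested, 2 were higher at p under 0.05, and 3 were without the third AL mouse. In the whole list of 24 glucose-sensing and arrestin genes, 4 were higher and 0 lower (against 1.83% and 2.31% of all genes), with a median log2 fold change of 0.026 beside −0.0032 for all genes. The glucose-sensing factors themselves, Mlxipl, Mlxip and Mlx, had log2 fold changes of 0.028, 0.054 and 0.10, and the thioredoxins Txn1 and Txn2 had -0.033 and -0.080. Of 13 genes of glucose transport and use only Pdk4, an inhibitor of pyruvate oxidation, had a p under 0.05. The most abundant member without one, Ldhb (a lactate dehydrogenase subunit), had a log2 fold change of 0.014 ± 0.076.

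**Figure D1:**
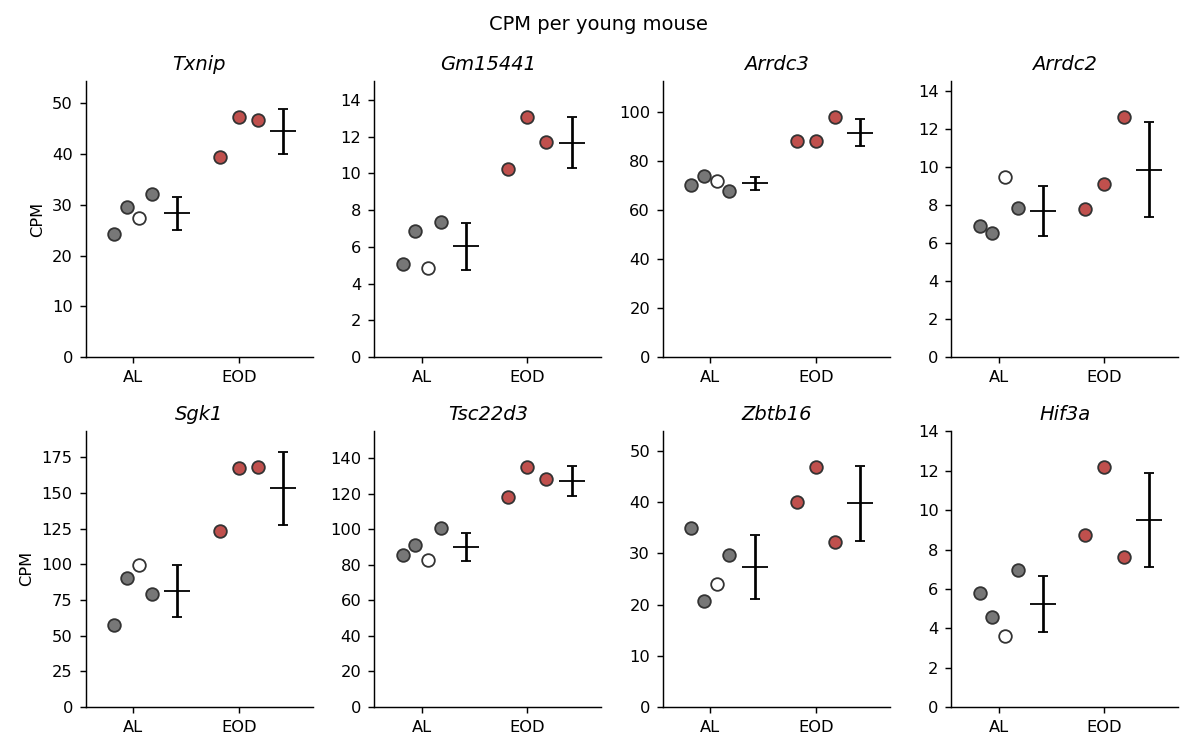
CPM of 4 genes of the arrestin group (upper row) and 4 glucocorticoid targets (lower row) in each young mouse; the open point is the third AL mouse, and bars give the mean and SD of each group. In 6 of the 8 panels all 3 EOD mice lie above all 4 AL mice, and Arrdc2 and Zbtb16 overlap.

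Glucocorticoid targets were the second group. Sgk1, a kinase that regulates ion channels and transporters and a classical target of the glucocorticoid receptor, showed the largest difference among them. Its level was 57.1, 90.4, 99.3 and 79.4 CPM in the AL mice and 124, 168 and 168 CPM in the EOD mice. The groups did not overlap, although the AL mice already spanned 57.1 to 99.3 CPM. The log2 fold change was 0.90 ± 0.29, and 1.01 ± 0.31 without the third AL mouse. Sgk1 has several annotated starts, and 1 of its 6 promoter windows held a full palindromic glucocorticoid response element, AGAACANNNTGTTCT, shown in capitals (RefSeq, GRCm38.p6, chr10:21993640-21993889, plus strand), 189 bases before that start.
Sgk1: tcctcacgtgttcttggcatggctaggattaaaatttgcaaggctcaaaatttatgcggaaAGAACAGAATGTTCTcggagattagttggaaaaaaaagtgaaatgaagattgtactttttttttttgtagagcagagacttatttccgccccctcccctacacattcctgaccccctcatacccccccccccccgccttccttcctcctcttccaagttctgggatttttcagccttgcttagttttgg
This motif was in 3 of the 32851 windows (0.00913%), and in a window of 1 of the 33 glucocorticoid and fasting genes that had one.

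Tsc22d3, which encodes the anti-inflammatory protein GILZ, stood at 85.4, 91.2, 82.4 and 101 CPM in the AL mice and 118, 135 and 128 CPM in the EOD mice. All EOD mice were above all AL mice (log2 fold change 0.50 ± 0.18). Zbtb16, a transcription factor induced by glucocorticoids, measured 34.9, 20.6, 24.1 and 29.7 CPM in the AL mice and 40.04, 46.9 and 32.3 CPM in the EOD mice. Here the first AL mouse lay above the third EOD mouse, and the log2 fold change was 0.54 ± 0.18. Ddit4, an inhibitor of mTORC1 that glucocorticoids and fasting induce, was measured at 22.4, 24.3, 22.7 and 33.2 CPM in the AL mice and 36.6, 36.97 and 34.7 CPM in the EOD mice. The EOD values were tightly grouped and the fourth AL mouse came close to them (log2 fold change 0.49 ± 0.17).

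Hif3a, an inhibitory partner of the hypoxia-inducible factors, was at 5.78, 4.58, 3.63 and 6.94 CPM in the AL mice and 8.73, 12.2 and 7.62 CPM in the EOD mice. At this low level the groups were still apart (log2 fold change 0.85 ± 0.31), and Hif3a missed the nominal level without the second EOD mouse (0.65). Nr3c2, the mineralocorticoid receptor that also binds corticosterone in brain, measured 59.9, 71.2, 52.9 and 63.3 CPM in the AL mice and 72.4, 71.5 and 81.2 CPM in the EOD mice, with EOD mice above AL mice by a narrow margin. Its log2 fold change was 0.28 ± 0.12, and it missed the nominal level without the third AL mouse (0.21 ± 0.12) or without the third EOD mouse (0.22). Pdk4 was at 12.9, 13.6, 8.16 and 12.2 CPM in the AL mice and 15.9, 15.6 and 14.7 CPM in the EOD mice. The third AL mouse was far below the rest. The log2 fold change was 0.41 ± 0.19 with it and 0.26 ± 0.17 without it. Pdk4 missed the nominal level then, and also without any single EOD mouse (0.38, 0.40 and 0.44).

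In all, 7 of 38 glucocorticoid and fasting genes were higher at p under 0.05 and 0 lower, beside 1.83% and 2.31% of all genes, and 5 were higher without the third AL mouse (1.75% of all genes). Their median log2 fold change was 0.13, or 0.099 without that mouse. In 9 of the 38 all EOD mice were above all AL mice, which held for 2.4% of all genes. Within lanes the median log2 difference of the list was 0.13 in lane 1 and 0.34 in lane 2. In both lanes 25 of 38 (65.8%) were higher in EOD mice, against 25.7% of all genes. That share was also 60.0% for neuronal immediate-early genes, of which 0 were higher at the nominal level. It was 56.0% for interferon response genes, 54.8% for cholesterol genes and 12.5% to 44.0% for the other lists. The share depends on the third AL mouse, since lane 2 offers no other AL library. Other targets of the same receptor did not separate the groups: Fkbp5, a chaperone of the receptor, measured 50.9, 47.5, 61.04 and 56.3 CPM in the AL mice and 56.7, 63.6 and 51.6 CPM in the EOD mice (log2 fold change 0.082 ± 0.15), and Klf9, the most abundant such target, had a log2 fold change of 0.053 ± 0.092. The glucocorticoid receptor gene Nr3c1 had a log2 fold change of 0.022.

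The third group was the synthesis of cholesterol and of monounsaturated fatty acids, in which the differences were small and so was the spread between mice. Scd1 and Scd2 encode stearoyl-CoA desaturases, which make oleic from stearic acid. Scd1 measured 318, 251, 265 and 261 CPM in the AL mice and 342, 322 and 340.1 CPM in the EOD mice, with no overlap (log2 fold change 0.29 ± 0.077). Scd2, one of the most abundant lipid enzymes in brain, was at 1967, 1872, 1712 and 1923 CPM in the AL mice and 2118, 2139 and 2093 CPM in the EOD mice, again without overlap (log2 fold change 0.18 ± 0.060).

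Along the sterol pathway, Hmgcs1, which makes the precursor of mevalonate, stood at 338, 368, 363 and 327 CPM in the AL mice and 423, 426 and 389 CPM in the EOD mice. Every EOD mouse was above every AL mouse (log2 fold change 0.24 ± 0.081). Its 250 bases before the start (RefSeq, GRCm38.p6, chr13:119690101-119690350, plus strand) hold a match to the sterol regulatory element TCACNCCAC, shown in capitals, 137 bases before the start.
Hmgcs1: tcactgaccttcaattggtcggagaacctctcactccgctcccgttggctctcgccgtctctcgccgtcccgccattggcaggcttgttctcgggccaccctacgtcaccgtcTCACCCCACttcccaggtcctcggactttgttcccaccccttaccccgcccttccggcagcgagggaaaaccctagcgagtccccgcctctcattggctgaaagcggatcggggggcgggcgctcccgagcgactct
This short motif was in 346 windows (1.05%) and in 1 of the 21 members of the list that had a window.

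Sc5d, which acts near the end of the sterol pathway, measured 75.2, 69.5, 64.7 and 65.1 CPM in the AL mice and 80.9, 80.6 and 88.97 CPM in the EOD mice, without overlap (log2 fold change 0.29 ± 0.084). Acat2, which joins 2 acetyl-CoA at the start of the pathway, was at 23.3, 27.5, 22.5 and 23.3 CPM in the AL mice and 28.3, 30.8 and 30.5 CPM in the EOD mice. The second AL mouse was close to the lowest EOD mouse (log2 fold change 0.31 ± 0.11). Sqle, the squalene epoxidase, was at 65.9, 76.6, 67.2 and 72.8 CPM in the AL mice and 79.98, 79.95 and 81.9 CPM in the EOD mice, with EOD mice within 2 CPM of each other (log2 fold change 0.19 ± 0.084). Sqle missed the nominal level without the first (0.17) or the third AL mouse (0.17) and without any single EOD mouse (0.18 to 0.20).

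For Msmo1, a sterol C4-demethylating oxidase, the values were 107, 120.2, 75.99 and 101 CPM in the AL mice and 119, 121 and 129 CPM in the EOD mice. The third AL mouse was lowest. The log2 fold change was 0.29 ± 0.12 with it and 0.17 ± 0.10, short of the nominal level, without it, and it was also short of that level without the second (0.30) or the third EOD mouse (0.25). Lss, the lanosterol synthase, was also higher in EOD mice, at 37.1, 36.5, 48.95 and 37.1 CPM in the AL mice and 48.5, 45.2 and 48.4 CPM in the EOD mice. Here the third AL mouse was as high as the EOD mice, and the log2 fold change was 0.25 ± 0.11 with it and 0.36 ± 0.10 without it. Lss missed the nominal level without any single other AL mouse and without the first or the third EOD mouse (0.20 to 0.23). The cholesterol carrier Stard4 had 47.8, 50.8, 51.97 and 45.3 CPM in the AL mice and 53.3, 56.4 and 62.03 CPM in the EOD mice (log2 fold change 0.22 ± 0.10), and it missed that level without the first or the fourth AL mouse or the second or the third EOD mouse (0.16 to 0.23). Nsdhl, a sterol dehydrogenase, reached the nominal level without the third AL mouse (log2 fold change 0.28 ± 0.10).

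Of 31 genes of cholesterol and fatty acid synthesis and sterol uptake, 9 were higher and 0 lower at p under 0.05, and 8 and 0 without the third AL mouse, beside the 1.83% and 2.31% (1.75% and 2.26%) of all genes. The median log2 fold change of the list was 0.18, and 0.16 without that mouse, and 23 of the 31 were above 0, or 24 without it, as were 49.2% and 50.4% of all genes. In 10 of the 31 all EOD mice were above all AL mice (2.4% of all genes) and in 0 below (2.05%). Among the 20 synthesis enzymes 17 had a fold change above 0. The regulators did not share this: Srebf2 and Srebf1, the transcription factors of the pathway, had log2 fold changes of -0.17 and -0.30, and neither had a p under 0.05. Fasn, the fatty acid synthase, measured 209.7, 168, 153 and 244 CPM in the AL mice and 252, 207 and 173 CPM in the EOD mice, a spread that covered both groups. Within lanes the median log2 difference of the list was 0.14 in lane 1 and 0.16 in lane 2.

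**Figure D2:**
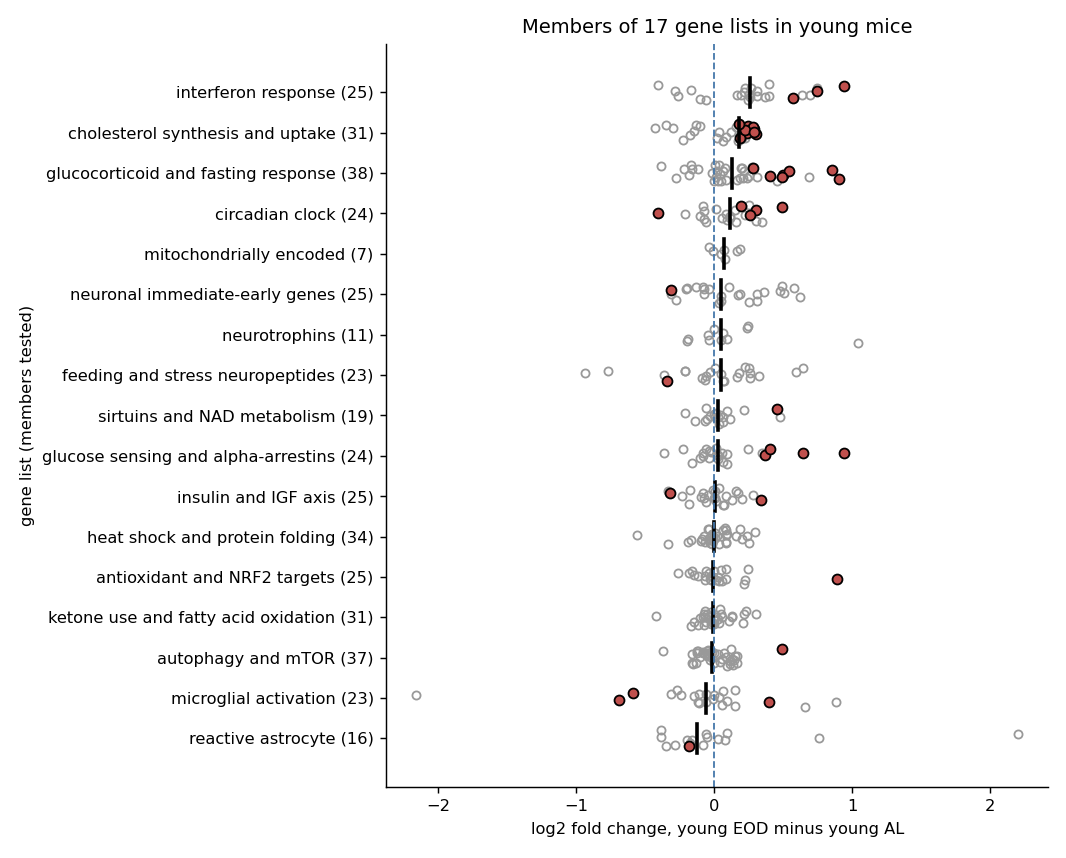
Log2 fold change of each tested member of 17 gene lists in young EOD against young AL mice; filled points have an unadjusted p under 0.05, black ticks are list medians and the dashed line is the median of all genes (−0.0032). The lists of cholesterol synthesis (9 filled points of 31) and of glucocorticoid and fasting genes (7 of 38) hold the most filled points in number, all to the right of 0. The lists differ in length. Of 24 clock genes 4 are filled to the right and 1 to the left, and of 24 glucose-sensing and arrestin genes 4 and 0. Over all genes 1.83% were higher and 2.31% lower at that p.

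In the circadian clock the activator gene Arntl was lower and the repressor genes Cry1 and Per3 were higher at the nominal level. Arntl, which encodes the activator BMAL1, was at 43.9, 40.4, 39.1 and 33.05 CPM in the AL mice and 29.7, 28.9 and 29.7 CPM in the EOD mice. The 3 EOD mice lay within 1 CPM of each other and below the lowest AL mouse (log2 fold change -0.41 ± 0.12), and the value without the third AL mouse was -0.40 ± 0.12. The 2 other activators did not reach that level, and Clock had 0.060 and Npas2 had -0.073.

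Cry1, a repressor of BMAL1 and CLOCK, measured 20.8, 21.3, 15.2 and 24.3 CPM in the AL mice and 24.4, 29.2 and 32.5 CPM in the EOD mice. The lowest EOD mouse exceeded the highest AL mouse by under 1 CPM, and the low value of the third AL mouse added to the difference (log2 fold change 0.49 ± 0.14, and 0.36 ± 0.12 without it). Per3, another repressor, was at 23.7, 22.8, 26.1 and 30.7 CPM in the AL mice and 36.9, 28.9 and 29.8 CPM in the EOD mice. One AL mouse was above 2 EOD mice (log2 fold change 0.31 ± 0.13). Without the first EOD mouse the value was 0.18, short of the nominal level, which Per3 also missed without the first (0.28) or the second AL mouse (0.25). All 8 repressors, a group that leaves out the Rev-erb genes, had a fold change above 0 (49.2% of all genes did), 2 of them at the nominal level. The median of the 8 was 0.28, with a range from 0.12 (Bhlhe41) to 0.49 (Cry1).

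Promoter windows of Cry1 and Per3 are shown since they carry the 2 kinds of clock element. The Cry1 window (RefSeq, GRCm38.p6, chr10:85185055-85185304, minus strand) holds the E-box CACGTG, the site of BMAL1 and CLOCK, in capitals, 60 bases before the start. The Per3 window (chr4:151044666-151044915, minus strand) holds 2 D-boxes, TTATGTAA, the site of DBP, TEF, HLF and NFIL3, in capitals, 205 and 158 bases before the start.
Cry1: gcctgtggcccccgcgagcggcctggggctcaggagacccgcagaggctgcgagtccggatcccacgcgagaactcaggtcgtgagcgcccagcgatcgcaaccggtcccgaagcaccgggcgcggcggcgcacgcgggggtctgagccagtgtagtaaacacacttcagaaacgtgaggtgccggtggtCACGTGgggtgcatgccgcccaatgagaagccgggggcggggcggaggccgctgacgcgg
Per3: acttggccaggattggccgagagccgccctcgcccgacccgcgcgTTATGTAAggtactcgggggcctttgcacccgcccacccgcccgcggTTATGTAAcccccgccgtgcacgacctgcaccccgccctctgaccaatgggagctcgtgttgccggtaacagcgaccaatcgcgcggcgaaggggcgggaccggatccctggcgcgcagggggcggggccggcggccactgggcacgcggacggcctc
The E-box was in 1978 windows (6.02%) and in 5 of the 20 clock genes that had a window (Bhlhe41, Ciart, Cry1, Per1 and Tef). The D-box was in 269 windows (0.819%) and in 1 of those 20. A gene counted if any of its windows held the motif, so that shares of genes and of windows are unlike measures.

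Nr1d2, which encodes REV-ERB beta, a repressor of Arntl, was at 151, 151, 140.4 and 141 CPM in the AL mice and 179.7, 176 and 168 CPM in the EOD mice, with no overlap (log2 fold change 0.26 ± 0.091). Nr1d1, the other Rev-erb gene and also a repressor, had -0.21 and did not reach p under 0.05. Hlf, an output factor of the clock, stood at 243, 262, 261 and 239 CPM in the AL mice and 292, 279.9 and 291 CPM in the EOD mice, also with no overlap (log2 fold change 0.19 ± 0.081), and missed the nominal level without the fourth AL mouse or the first or the third EOD mouse (0.17 to 0.19). Tef, of the same family, was at 368, 394, 411 and 402 CPM in the AL mice and 447, 442 and 429 CPM in the EOD mice. These groups did not overlap either, and the log2 fold change was 0.16 ± 0.076 with all mice, just short of the nominal level, and 0.18 ± 0.080 without the third AL mouse, just past it. Of the 4 output factors listed 2 were above 0 and 2 below with all mice (median 0.040, lowest -0.10). Without the third AL mouse 3 were above 0.

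Leaving out that mouse changed the clock list. Ciart, a repressor, was at 5.78, 6.69, 12.7 and 6.53 CPM in the AL mice and 10.3, 9.46 and 9.99 CPM in the EOD mice, where the third AL mouse was above all others, and the log2 fold change went from 0.31 ± 0.25 to 0.64 ± 0.21. Bhlhe41 went from 0.12 ± 0.12 to 0.26 ± 0.10 in the same way, and both then reached the nominal level. Rora, the most abundant clock gene that did not pass in either case, had a log2 fold change of 0.20 ± 0.12. The list as a whole had 4 of 24 genes higher and 1 lower at p under 0.05, and 7 and 1 without the third AL mouse, with medians of 0.12 and 0.17 (all genes 1.83% and 2.31%, and 1.75% and 2.26%). Within lanes its median log2 difference was 0.21 in lane 1 and 0.076 in lane 2. Leaving out the first EOD mouse brought the 4 down to 2.

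**Figure D3:**
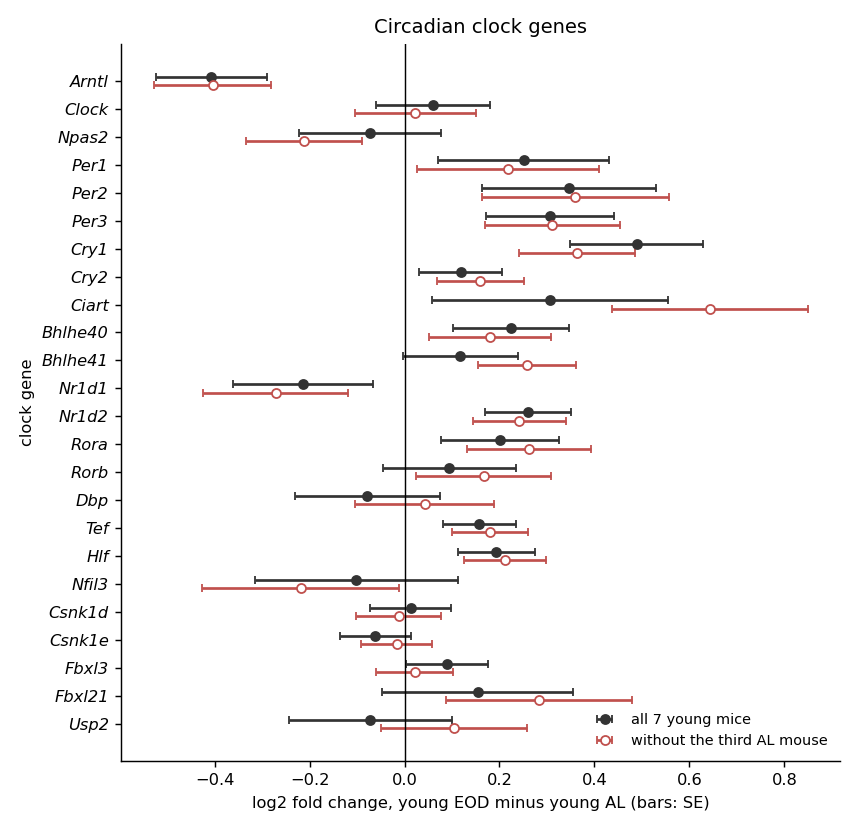
Log2 fold change (x axis, with SE bars) of the 24 clock genes (y axis) in young EOD against young AL mice, with all 7 mice (filled) and without the third AL mouse (open). Arntl is on the negative side at −0.41, and the 8 repressors from Per1 to Bhlhe41, without the Rev-erb genes, are on the positive side. Ciart moves most when the mouse is left out.

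The rule that took the 12 genes with the smallest p in each direction, among those with p under 0.05 both with and without the third AL mouse, drew on 150 higher and 162 lower genes. Txnip, Gm15441, Arrdc3, Scd1, Sc5d, Cry1 and Arntl, described above, were among the 24. All 24 had the same direction within lane 1 and within lane 2, which their choice by p in these same mice makes likely. No AL library other than that of the third mouse enters the lane 2 values. All EOD mice were above all AL mice for the 12 higher genes and below them for 11 of the 12 lower genes, as the selection on p makes likely. The third AL mouse was the highest AL mouse for 9 of the 12 lower genes and the lowest for 6 of the 12 higher genes.

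Among the other higher genes, Etnppl, an astrocyte enzyme that breaks down phosphoethanolamine, measured 54.2, 39.2, 47.6 and 44.7 CPM in the AL mice and 59.5, 65.7 and 98.96 CPM in the EOD mice. The third EOD mouse was well above the rest (log2 fold change 0.69 ± 0.15, and 0.43 without it). Zfp189, a zinc finger protein, was at 9.28, 9.80, 10.7 and 11.8 CPM in the AL mice and 13.8, 19.6 and 15.4 CPM in the EOD mice, with the second EOD mouse highest. For Slitrk6, a neuronal membrane protein that shapes neurite growth, the values were 10.002, 7.88, 9.29 and 7.86 CPM in the AL mice and 11.9, 13.8 and 17.1 CPM in the EOD mice. The log2 fold changes of these 2 genes were 0.62 ± 0.16 and 0.70 ± 0.20.

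Synm, an intermediate filament protein of astrocytes and muscle, measured 53.4, 49.2, 35.96 and 49.4 CPM in the AL mice and 64.7, 60.7 and 57.96 CPM in the EOD mice (log2 fold change 0.39 ± 0.11). Prex2, an activator of the small GTPase Rac, was at 119, 95.1, 91.1 and 104 CPM in the AL mice and 133, 145 and 127 CPM in the EOD mice (log2 fold change 0.40 ± 0.12). Neither overlapped. Gm26903 was at 2.53, 2.57, 1.13 and 2.93 CPM in the AL mice and 4.41, 4.47 and 4.34 CPM in the EOD mice, near 4.4 CPM in all EOD mice (log2 fold change 0.95 ± 0.28).

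The lower genes were expressed at modest levels. Tceal6, an X-linked gene of a family of near-identical transcription elongation factor-like genes, measured 38.2, 43.5, 48.2 and 36.7 CPM in the AL mice and 31.4, 31.1 and 29.2 CPM in the EOD mice (log2 fold change -0.45 ± 0.10). Wnt7a, a Wnt ligand, was at 13.02, 11.2, 14.9 and 14.6 CPM in the AL mice and 8.62, 9.28 and 9.86 CPM in the EOD mice (log2 fold change -0.54 ± 0.16). For Dmpk, the kinase of myotonic dystrophy, the values were 5.30, 6.32, 6.42 and 6.27 CPM in the AL mice and 4.41, 3.09 and 3.68 CPM in the EOD mice (log2 fold change -0.69 ± 0.20). None of these 3 overlapped between groups. Pelo, which rescues stalled ribosomes, and Zfp516, a zinc finger factor, had log2 fold changes of -0.47 ± 0.14 and -0.61 ± 0.18. Zfp516 was the single lower gene whose groups overlapped, at 17.1, 12.8, 15.9 and 24.4 CPM in the AL mice and 10.3, 11.5 and 12.9 CPM in the EOD mice, and its value was -0.41 without the fourth AL mouse.

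In 5 of the lower genes the third AL mouse was far above the other AL mice. Armc2, an armadillo repeat protein, was at 8.32, 7.97, 15.7 and 8.78 CPM in the AL mice and 6.67, 5.33 and 4.99 CPM in the EOD mice, and the log2 fold change shrank from -0.85 to -0.54 without that mouse. Slc10a4, a transporter-like protein of synaptic vesicles in cholinergic and monoaminergic neurons, went from -1.11 to -0.85. Nupr1, a stress-induced chromatin protein, went from -0.91 to -0.59. Fuom, a fucose mutarotase, went from -0.54 to -0.34. The ribosomal protein gene Rpl31, which has many near-identical pseudogenes and so uncertain counts, went from -0.89 to -0.64. Gngt2, a G protein gamma subunit, was the rarest, at 1.08, 1.92, 1.28 and 2.01 CPM in the AL mice and 0.719, 0.688 and 0.394 CPM in the EOD mice (log2 fold change -1.38 ± 0.40).

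Other programs tied to feeding held few or no genes at the nominal level, where the share over all genes was small too (1.83% higher and 2.31% lower). Of 31 genes for ketone use and fatty acid oxidation 0 were higher or lower at p under 0.05 (median −0.0098), also without the third AL mouse. Oxct1, the enzyme that lets the brain use ketone bodies, was at 473, 500.3, 571 and 436 CPM in the AL mice and 458, 493 and 465 CPM in the EOD mice (log2 fold change -0.069 ± 0.082). Of 23 feeding and stress neuropeptides 0 were higher and 1 was lower (against 1.83% higher and 2.31% lower of all genes): Npy, which stimulates feeding but is also made by many cortical interneurons, measured 37.1, 41.5, 43.4 and 39.4 CPM in the AL mice and 33.2, 27.7 and 34.7 CPM in the EOD mice. The groups did not overlap (log2 fold change -0.34 ± 0.16), and Npy missed the nominal level without the third AL mouse (-0.30 ± 0.17), as it did without any other single mouse except the first AL and the third EOD mouse (-0.37 to -0.25). Sst, the most abundant of these, measured 63.99, 91.5, 63.4 and 97.6 CPM in the AL mice and 66.8, 63.4 and 74.5 CPM in the EOD mice.

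In the insulin and IGF axis 1 of 25 genes was higher and 1 lower (against 1.83% higher and 2.31% lower of all genes). Igfbp3 and Igfbp2 encode proteins that bind insulin-like growth factors. Igfbp3 was at 12.8, 15.8, 11.5 and 15.2 CPM in the AL mice and 15.9, 19.9 and 16.95 CPM in the EOD mice and Igfbp2 at 24.9, 26.3, 27.6 and 31.8 CPM in the AL mice and 23.4, 20.6 and 22.5 CPM in the EOD mice. Their log2 fold changes were 0.34 ± 0.15 and -0.32 ± 0.15. Neither kept the nominal level without the third AL mouse (0.25 ± 0.14 and -0.32 ± 0.16), while Akt2, a kinase downstream of the insulin receptor, reached it then (-0.29 ± 0.11). Igfbp3 also missed it without the first AL (0.31) or the second EOD mouse (0.25), and Igfbp2 without any single mouse except the first AL mouse (-0.36 to -0.24). The kinase Gsk3b had a log2 fold change of 0.069 ± 0.078.

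Neuronal activity genes depended on the third AL mouse. The median log2 difference of the 25 immediate-early genes was 1.03 in lane 2, where it is the sole AL mouse, against 0.15 in lane 1. With all mice 0 were higher and 1 was lower, Nptx2, a synaptic pentraxin, at 43.99, 52.04, 40.4 and 52.5 CPM in the AL mice and 36.1, 39.9 and 38.2 CPM in the EOD mice (log2 fold change -0.31 ± 0.12), beside 1.83% higher and 2.31% lower of all genes. Nptx2 missed the nominal level without the second (-0.26) or the fourth AL mouse (-0.26) or the first EOD mouse (-0.27). Without that mouse 0 were higher and 3 lower, and the median changed from 0.052 to −0.096. Jund, an AP-1 factor, and Bdnf, the brain-derived neurotrophic factor, were the others, with log2 fold changes of -0.39 ± 0.17 and -0.24 ± 0.11 then. Bdnf measured 53.4, 61.7, 49.8 and 55.7 CPM in the AL mice and 50.9, 53.1 and 40.6 CPM in the EOD mice, so that 2 EOD mice lay within the range of the AL mice. Its receptor Ntrk2 had a log2 fold change of 0.050 ± 0.077, and of 11 neurotrophin genes 0 had p under 0.05 with all mice and 1, Bdnf, without the third. Homer1, a synaptic scaffold with an activity-induced form, ranged from 178 to 366 CPM in AL mice and from 190.2 to 415 CPM in EOD mice.

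Few genes of cell maintenance reached the nominal level, at which 1.83% of all genes were higher and 2.31% lower. Of 19 sirtuin and NAD genes 1 was higher, Cd38, an enzyme that consumes NAD, at 10.4, 8.61, 12.01 and 10.4 CPM in the AL mice and 12.7, 13.1 and 16.8 CPM in the EOD mice (log2 fold change 0.45 ± 0.18). Cd38 missed the nominal level without the second AL (0.38) or the third EOD mouse (0.32). The NAD-synthesising Nmnat2 had 0.10 ± 0.080. Of 34 heat shock and folding genes 0 had p under 0.05. Hsf1, their transcription factor, reached the nominal level without the third AL mouse (log2 fold change -0.30 ± 0.13, against -0.10 ± 0.19 with it), and the abundant chaperone Hsp90ab1 had -0.012 ± 0.077 with all mice. Of 37 autophagy and mTOR genes 1 was higher, Ddit4, which also stands in the glucocorticoid list, and the autophagosome protein gene Gabarapl1 had -0.053 ± 0.075. None of the 7 mitochondrially encoded genes tested had p under 0.05, and mt-Co1, a subunit of cytochrome c oxidase, had 0.072 ± 0.082.

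Among 25 antioxidant genes 1 was higher (1.83% of all genes), Hmox1, the heme oxygenase, at 4.58, 4.03, 0.755 and 4.85 CPM in the AL mice and 4.31, 7.91 and 7.49 CPM in the EOD mice. The value of the third AL mouse was the lowest by far, and the log2 fold change was 0.89 ± 0.40 with it and 0.52 ± 0.28 without it. Hmox1 missed the nominal level then, and also without the second (0.74) or the third EOD mouse (0.77). Mt3, a brain metallothionein, reached the nominal level without that mouse (log2 fold change -0.20 ± 0.092), and the peroxiredoxin Prdx2 had 0.055 ± 0.081 with all.

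Both glial activation lists held genes past p under 0.05 (against 1.83% higher and 2.31% lower of all genes). Of 16 reactive astrocyte genes 1 was lower, Gfap, the astrocyte filament protein, at 174, 152, 173 and 174 CPM in the AL mice and 131, 162 and 153 CPM in the EOD mice. The lowest AL mouse lay below 2 EOD mice (log2 fold change -0.18 ± 0.083), and Gfap missed the nominal level without the third AL mouse (-0.17 ± 0.089), without the first (-0.16) or the fourth (-0.17) and without the first EOD mouse (-0.10). Emp1, a membrane protein of reactive astrocytes, reached it without the third AL mouse (-0.74 ± 0.24), from levels of 5.91, 4.49, 0.831 and 5.19 CPM in the AL mice and 3.39, 2.75 and 3.02 CPM in the EOD mice. Of 23 microglial activation genes 1 was higher and 2 were lower. Csf1, the growth factor of microglia, was at 20.4, 20.6, 16.3 and 21.5 CPM in the AL mice and 23.7, 25.8 and 28.4 CPM in the EOD mice (log2 fold change 0.40 ± 0.12). Trem2, a microglial lipid receptor, and Gpnmb, a marker of lysosome-rich microglia, had log2 fold changes of -0.58 ± 0.20 and -0.69 ± 0.27, and both missed the nominal level without the third AL mouse (-0.36 ± 0.17 and -0.54 ± 0.26), as did Gpnmb without the third EOD mouse (-0.47). The cathepsin Ctsb had 0.037 ± 0.069.

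Of 25 interferon response genes 3 were higher both with and without the third AL mouse (1.83% and 1.75% of all genes), with a list median of 0.26, or 0.14 without it. One EOD mouse stood out for the first of them: Ifit3, an antiviral effector, was at 6.27, 6.69, 6.12 and 5.52 CPM in the AL mice and 15.5, 7.57 and 7.23 CPM in the EOD mice, with the first EOD mouse far above the other 6. Its log2 fold change of 0.75 ± 0.23 was 0.27, short of the nominal level, without that mouse. Ifih1, a sensor of viral RNA, was at 6.99, 5.68, 4.004 and 6.78 CPM in the AL mice and 8.73, 8.94 and 8.28 CPM in the EOD mice (log2 fold change 0.57 ± 0.19), without overlap. Oasl2, also an antiviral protein, was at 4.58, 4.76, 0.604 and 3.93 CPM in the AL mice and 8.93, 4.64 and 5.52 CPM in the EOD mice, with the third AL mouse lowest. Its log2 fold change was 0.94 ± 0.38, 0.57 without that mouse and 0.59, short of the nominal level, without the first EOD mouse. The abundant member Ifi27 had a log2 fold change of -0.17 ± 0.11.

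Markers of brain regions and cell types also moved with the groups, and their part in the results above was not tested. In bulk tissue fewer cells of a type and less RNA per cell cannot be told apart. All 7 striatal markers had a fold change below 0, where 49.2% of all genes were above 0, and 3 were lower at p under 0.05 (2.31% of all genes). None of the 3 kept the nominal level without the second EOD mouse. Ppp1r1b (DARPP-32, of striatal projection neurons) was at 173, 251, 228 and 236 CPM in the AL mice and 167, 131 and 193 CPM in the EOD mice (log2 fold change -0.44 ± 0.14, and -0.31 without that mouse). Adora2a, the adenosine receptor of the indirect pathway, was at 27.5, 34.3, 29.7 and 42.4 CPM in the AL mice and 25.4, 14.4 and 28.4 CPM in the EOD mice (log2 fold change -0.54 ± 0.20), which became -0.32 without the second EOD mouse and -0.41, again short of the nominal level, without the fourth AL mouse. Drd2, the dopamine receptor, joined them without the third AL mouse (-0.40 ± 0.19).

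Summed over the 7 striatal markers, the AL mice had 827 to 1016 CPM and the EOD mice 638 to 813 CPM, which do not overlap. For the 8 thalamic and hypothalamic markers the sums were 261 to 416 CPM and 377 to 396 CPM, and only the third AL mouse was above the EOD mice. Of these markers 7 had a fold change above 0 and 1 was below, at -0.77. Without the third AL mouse 6 were above 0, and over all genes 49.2% and 50.4% were. Tcf7l2, a transcription factor of thalamic neurons, was at 44.3, 32.3, 32.3 and 26.9 CPM in the AL mice and 65.8, 34.04 and 46.9 CPM in the EOD mice (log2 fold change 0.55 ± 0.21), and missed the nominal level without the first EOD mouse (0.27). Prkcd, a kinase abundant in thalamus, reached the nominal level without the third AL mouse (0.45 ± 0.19). Slc17a6, the glutamate transporter of thalamic and other subcortical neurons, was at 179, 137, 134 and 145 CPM in the AL mice and 198, 172 and 201 CPM in the EOD mice (log2 fold change 0.36 ± 0.11). It was taken from the 9 neuron markers, of which it was the only one above 0 and 8 were below. Without the third AL mouse 5 of the 9 were above 0. All 6 olfactory bulb markers were below 0 too, with a median of −0.46, and sums of 199 to 341 CPM in AL mice and 162 to 284 CPM in EOD mice. The 7 hippocampal and cortical markers summed to 286 to 349 CPM and 283 to 340.1 CPM.

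**Figure D4:**
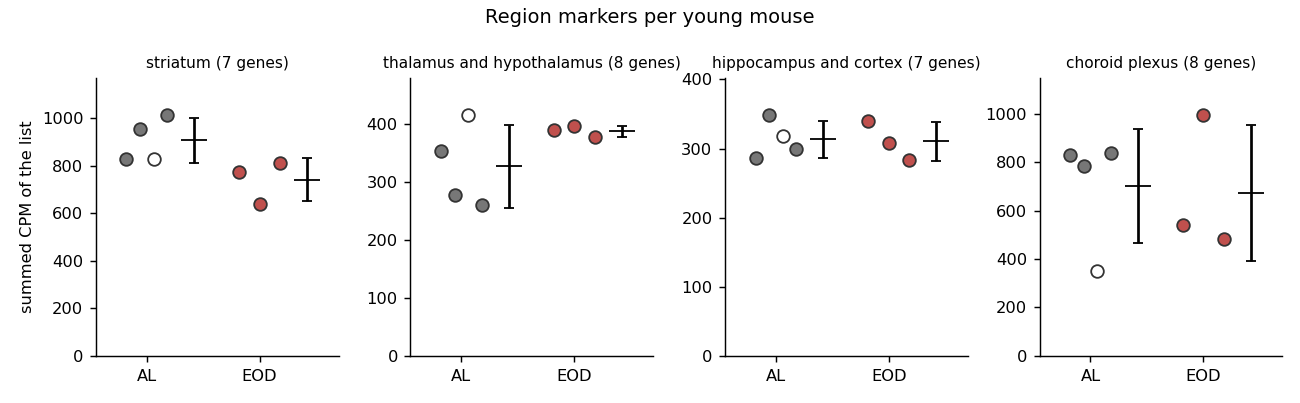
Summed CPM of the markers of 4 brain regions in each young mouse, with the third AL mouse as an open point and bars for the mean and SD. The EOD mice lie below the AL mice for striatal markers (638 to 813 against 827 to 1016 CPM), while hippocampal and cortical markers overlap, and choroid plexus markers vary most from mouse to mouse (352 to 996 CPM).

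Of the cell types, astrocytes had 2 of 8 markers higher (1.83% of all genes), the gap junction gene Gja1 at 307, 269.7, 259.6 and 282 CPM in the AL mice and 314, 334 and 317 CPM in the EOD mice and the folate enzyme Aldh1l1 at 52.7, 56.98, 60.6 and 63.1 CPM in the AL mice and 63.9, 65.5 and 76.2 CPM in the EOD mice, with a summed level of 4963 to 5471 CPM in AL and 5208 to 5674 CPM in EOD mice. Gja1 missed the nominal level without the second EOD mouse (0.20 with it and 0.18 without) and Aldh1l1 without the third (0.23 and 0.15). All 8 oligodendrocyte markers were above 0, and 7 without the third AL mouse, beside 49.2% and 50.4% of all genes (median 0.13, sums 6291 to 7413 and 6958 to 7514 CPM), and Mog, a myelin protein, reached the nominal level without the third AL mouse (0.23 ± 0.080). All 8 endothelial markers were below 0, but 1 was above it without the third AL mouse (median −0.089, sums 298 to 382 and 303 to 325 CPM). Cldn5, a tight junction protein, reached it in the same way (-0.61 ± 0.18). The smooth muscle myosin Myh11 was lower at 13.3, 11.2, 12.99 and 15.9 CPM in the AL mice and 9.04, 10.7 and 10.5 CPM in the EOD mice (log2 fold change -0.41 ± 0.17), and missed the nominal level without the fourth AL (-0.31) or the first EOD mouse (-0.33). Without the third AL mouse the choroid plexus channel subunit Kcne2 (-0.86 ± 0.31) and the oligodendrocyte lineage factor Olig1 (-0.38 ± 0.17) were lower. The microglial integrin Itgam (0.27 ± 0.11) was higher then. Each was the only marker of its list at the nominal level, beside 1.75% higher and 2.26% lower of all genes. In that fit 4 of 7 oligodendrocyte precursor markers (median 0.065), 4 of 8 microglial markers (median 0.0092) and 1 of 8 choroid plexus markers (median -0.29) were above 0. Summed levels were 336 to 385 CPM in AL and 339 to 365 CPM in EOD mice for the 8 microglial markers and 232 to 265 and 223 to 245 CPM for the 8 mural markers.

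The last comparison asked whether the diet difference was the same in young and in old mice, which share no animal. No gene passed FDR 0.1 for the difference of differences (0%, edgeR, lowest FDR 0.9998), and 362 genes had an unadjusted p under 0.05 (2.28%), 195 with the more positive diet difference in young mice (1.23%) and 167 with the more negative (1.05%). The diet comparison in old mice had 0 genes past FDR 0.1 and 409 at p under 0.05 (2.58%). For this difference 9 of 38 glucocorticoid and fasting genes and 4 of 24 arrestin and glucose-sensing genes had a p under 0.05. All 13 had the more positive value in young mice. Such genes also stood in other lists, among them 3 of 23 microglial activation and 3 of 31 ketone and fatty acid oxidation genes. These too had the more positive value in young mice.

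Txnip was at 34.1 ± 3.51 CPM in old AL mice and 32.3 ± 4.22 CPM in old EOD mice (SD, n = 4 each), so that the old log2 fold change was -0.068 against 0.64 in young mice. The difference of the 2, old minus young, was -0.71 ± 0.17, and -0.69 without the third AL mouse. Gm15441, Arrdc3 and Arrdc2 had old log2 fold changes of -0.28, -0.20 and -0.51, and differences of -1.21 ± 0.28, -0.56 ± 0.14 and -0.85 ± 0.29. The old values of all 4 were thus below 0, with Txnip close to it at -0.068. All 4 were at the nominal level for the difference, and a choice by that p makes low old values likely. In old mice only 1 of the 5 arrestins tested was lower at p under 0.05, and Gm15441 was not (1.61% of all genes were).

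Sgk1 was at 163 ± 48.97 CPM in old AL and 141 ± 71.3 CPM in old EOD mice (SD, n = 4 each), a wider spread than in young mice. Its difference of differences was -1.11 ± 0.39. Hif3a had -0.79 in old mice and a difference of -1.64 ± 0.44, Tsc22d3 had -0.32 and -0.82 ± 0.24, Zbtb16 had -0.23 and -0.78 ± 0.24, and Ddit4 had -0.22 and -0.70 ± 0.24. Angptl4, an inhibitor of lipoprotein lipase that fasting induces, was at 2.65, 2.38, 1.44 and 2.43 CPM in the AL mice and 2.67, 3.61 and 4.47 CPM in the EOD mice with a young log2 fold change of 0.69 ± 0.34. Its old value was -0.93 and its difference -1.62 ± 0.49.

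The metallothioneins Mt1 and Mt2, which bind zinc and copper, had young log2 fold changes of -0.12 and 0.013 and old ones of -0.69 and -0.83, with differences of -0.58 ± 0.26 and -0.84 ± 0.28, and Mt1 missed the nominal level without the third AL mouse (-0.55), as it did without 4 of the other 6 young mice (−0.41 to −0.56). Plin4, a lipid droplet protein, had 0.24 and -1.34, a difference of -1.58 ± 0.63 that became −1.41, short of the nominal level, without the second EOD mouse. In old mice 10 of the 38 glucocorticoid and fasting genes were lower and 0 higher at p under 0.05, where 1.61% of all genes were lower and 0.971% higher. The medians of the list were 0.13 in young and −0.18 in old mice, beside −0.0032 and 0.0026 over all genes. Lower genes in old EOD mice were not particular to this list. Of 23 microglial activation genes 11 were lower and 0 higher there at p under 0.05 (median −0.33).

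**Figure D5:**
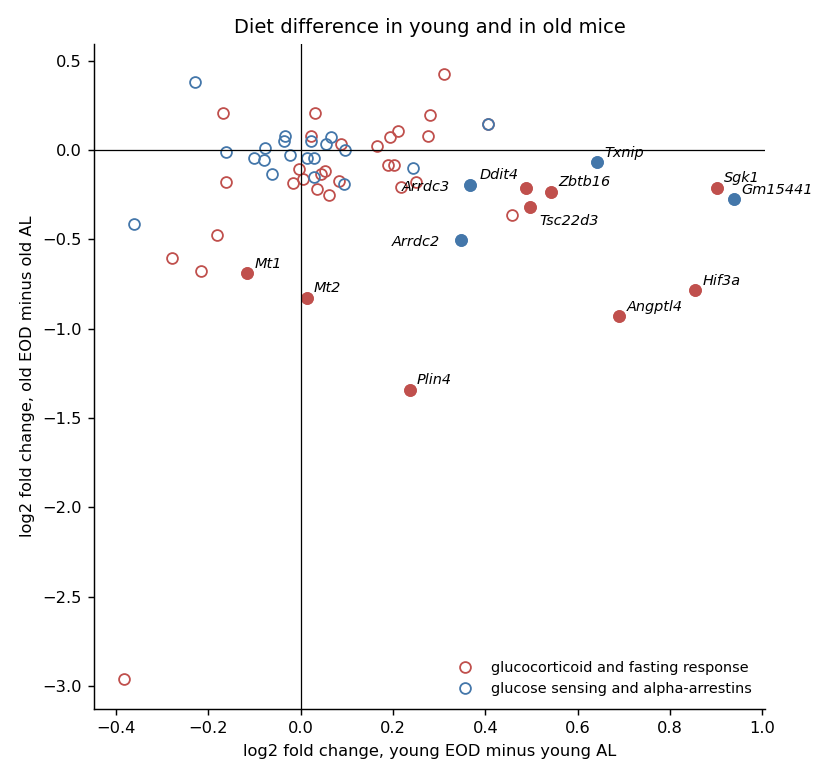
Log2 fold change of EOD against AL in young mice (x axis) and in old mice (y axis) for the members of 2 gene lists; filled, named points have an unadjusted p under 0.05 for the difference between the ages. All 13 filled points lie below 0 on the y axis, and 12 of them, all but Mt1, are above 0 on the x axis. Filled points were chosen by the difference between these 2 values, which makes opposite signs likely.

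The nominal level for the difference between the ages was reached by 2.28% of all genes and by 1 of 24 clock genes. Arntl was the single clock gene with p under 0.05 for the difference (0.35 ± 0.16), with a log2 fold change of -0.062 in old mice. Cry1 had 0.30 in old mice, and its difference was -0.19 ± 0.19. Tef had 0.18 and 0.025 ± 0.10. Of the 31 cholesterol genes 0 had p under 0.05 for the difference, and Lss, the one higher in old EOD mice at p under 0.05, had 0.27 there. Scd1 had 0.12 and a difference of -0.17 ± 0.10.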

How the data were processed

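One library per mouse was sequenced, as 15 whole-brain samples grouped by their labels. Reads were trimmed and mapped by the authors (STAR, Ensembl GRCm38), who counted primary alignments of mapping quality 5 or more by strand with featureCounts 1.5.0-p1 on the genes of Ensembl release 79. They deposited raw counts of 43629 genes with no normalization. Tests used edgeR 4.0.16 under R 4.3.3 (filterByExpr, TMM factors, quasi-likelihood test, Benjamini-Hochberg adjustment) in 1 fit of the 4 group means of all 15 mice, and again without the third young AL mouse. Alternatives used DESeq2 1.42.0, limma 3.58.1 voom, other filters and scalings, lane, and each young mouse left out in turn. The fit was tested on simulated data. Lane values use log2 CPM with a prior count of 2. The common biological coefficient of variation was 0.119. No replicate pair was a duplicate (chi-square per degree of freedom 3.01 to 16.6 in 9 pairs). The labels do not say that numbers mark separate cages or litters, and mice were housed in groups. Whether the mice of a group are independent is therefore not known. The p-values set each difference against the spread between mice within groups, estimated over all 15. Motifs were searched on both strands of RefSeq windows of 250 bases. A gene with several windows counted as holding a motif if any of them did.

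The members, gene lists and tests were chosen with earlier results of these data known. Named genes are the 12 per direction with the smallest p (symbol, mean log2 CPM of 0 or more, p under 0.05 with and without the third AL mouse), the top gene and its overlapping gene, genes called by DESeq2 or by any fit that kept the filter, list members at p under 0.05 for diet in either fit or, for 2 lists, for the difference between ages, and the most abundant other member of each list. A few further list members are named as examples of their role. A gene that this rule took is not reported here.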

Additional observations from a re-analysis of the deposited data

Results flagged for a closer look

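In 8 of 105 sets of values (101 named genes and 4 library measures) the highest or lowest of the 4 young AL mice was separated from the other 3 by more than Dixon's critical value allows, and about 1 in 20 such groups is expected by chance. The third AL mouse was the one apart in 5. It was high for Armc2 (15.7 CPM against 7.97 to 8.78 in the other 3), Ciart (12.7 against 5.78 to 6.69 CPM), Fuom (27.3 against 17.1 to 18.2 CPM) and Lss (49.0 against 36.5 to 37.1 CPM), and low for Cldn5 (10.7 against 21.5 to 23.4 CPM). The second AL mouse was high for Acat2 (27.5 against 22.5 to 23.3 CPM) and low for Gfap (152 against 173 to 174 CPM). The first AL mouse was low for Dmpk (5.30 against 6.27 to 6.42 CPM).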

How the results depend on the processing

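The alternatives other than those named here as added were set with earlier results of these data known. The count of genes past FDR 0.1 for diet in young mice stayed at 0 in every fit except 2, with 1 gene in DESeq2 with 15 mice and 26 with all genes of at least 1 count, and for the difference between ages it was 26 in that last fit alone. All 26 diet genes had also been tested with the filter, and Sgk1 had an FDR of 3.49e-16 there at the same log2 fold change of 0.90; the cause was not tested. Genes at an unadjusted p under 0.05 for diet numbered 371 with the 7 young mice alone and 1243 with every gene, and 427 (without the second EOD mouse) to 1022 (without the first AL mouse) with 1 mouse left out. With replicate number as a block there were 0 past FDR 0.1 and 613 at p under 0.05; the correlations of same-numbered mice (−0.013, −0.072 and 0.025) do not pair them, and no EOD mouse correlated best with its own number. For the difference between ages these counts were added after the data were seen, and numbered 833 with every gene, 569 with lane, and 314 to 591 (without the fourth AL mouse) with 1 mouse left out.

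The list counts were added after the data were seen. Higher cholesterol genes numbered 5 (without the third EOD mouse) to 12 with 1 mouse left out, glucose-sensing and arrestin genes 3 to 4, and glucocorticoid and fasting genes 5 to 9, and 4 in DESeq2 without the third AL mouse. Higher clock genes numbered 2 (without the first EOD mouse) to 7 (without the third AL mouse), 7 with the 7 young mice alone, 10 with the other 6 alone, 8 with every gene, 7 in DESeq2 without the third AL mouse and 7 in limma voom.

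Of 1713 log2 fold changes of the 101 named genes under the 17 alternatives, 1670 kept their sign. The 43 that turned belonged to 13 genes that had p over 0.05 with all mice, as the choice of most named genes by p makes likely. Leaving out 1 mouse gave −0.011 to 0.079 for Ctsb, −0.027 to 0.26 for Fasn, −0.085 to 0.019 for Gabarapl1, −0.20 to 0.31 for Homer1, −0.30 to 0.032 for Hsf1, −0.054 to 0.058 for Hsp90ab1, −0.075 to 0.27 for Itgam, −0.034 to 0.058 for Ldhb, −0.28 to 0.046 for Mt1, −0.076 to 0.20 for Mt2, −0.0050 to 0.11 for Ntrk2, −0.12 to 0.0078 for Oxct1 and −0.012 to 0.57 for Plin4. The 6 young mice alone gave 0.020 for Gabarapl1, −0.14 for Homer1, 0.059 for Hsp90ab1, −0.063 for Mt2, 0.0088 for Oxct1 and −0.0086 for Plin4. DESeq2 without the third AL mouse gave 0.013 for Gabarapl1, −0.15 for Homer1, 0.053 for Hsp90ab1, −0.0037 for Ldhb, −0.073 for Mt2 and 0.0023 for Oxct1. Limma voom gave −0.083 for Homer1, 0.058 for Hsp90ab1, −0.075 for Mt2 and 0.0043 for Oxct1, and lane as a covariate gave −0.026 for Itgam and −0.017 for Ldhb. In alternatives also added after the data were seen, the difference between ages kept its sign for all 13 genes named for it in all 194 cases, with p under 0.05 in 183, the exceptions being Mt1 (7 of 15) and Plin4 (12 of 15). These genes were chosen by their p for that difference in the same mice, which makes such agreement likely. Only young mice were left out in turn, and no old mouse was.

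With 3 EOD mice and 5877267 to 13610729 counts, the median standard error of a log2 fold change was 0.15 over all genes and 0.098 over genes at an average log2 CPM of 5 or more, and genes of a few CPM were measured less well. In lane 3 there was no young EOD mouse, so that no within-lane value exists there. An FDR threshold of 0.05 left the counts at 0.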

Other observations

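Several genes outside the lists were called past FDR 0.1 only with no filter on low counts, and those below were chosen after their values were seen. All 26 genes called there were tested with the filter too, where none passed. Lhx9 and Shox2 encode transcription factors of thalamic neurons. Lhx9 was at 16.99, 6.32, 4.23 and 9.12 CPM in the AL mice and 17.8, 12.04 and 19.7 CPM in the EOD mice, and Shox2 was at 16.5, 12.4, 4.38 and 12.9 CPM in the AL mice and 20.9, 20.3 and 21.6 CPM in the EOD mice. The first AL mouse lay within the EOD range for Lhx9 and below it for Shox2, and the log2 fold changes with the filter were 0.90 ± 0.31 and 0.88 ± 0.30. Penk, the enkephalin precursor abundant in striatum, was at 187, 249, 251 and 252 CPM in the AL mice and 161, 156 and 219 CPM in the EOD mice (log2 fold change -0.40 ± 0.14). Fabp7, a fatty acid binding protein of glia, was at 71.7, 37.01, 19.5 and 51.96 CPM in the AL mice and 21.7, 32.5 and 20.5 CPM in the EOD mice (log2 fold change -0.86 ± 0.35). Slc6a2, the noradrenaline transporter of locus coeruleus neurons, was at 0, 0.0916, 0 and 0.0837 CPM in the AL mice and 1.64, 2.58 and 0 CPM in the EOD mice.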
